A study of Rattus norvegicus with 6 samples.

Results

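Ribosomal protein genes of the cytosolic ribosome were compared in the livers of rats resuscitated to a low or a high blood pressure after uncontrolled hemorrhage. The genes were those whose rat symbol is Rpl, Rps or Rplp with a number, with S6 kinases left out. They were picked by symbol and not by a measured value, though with earlier results of these data known. The rule found 64 of the 7126 genes that could be named among 19345 rows of the array table, 38 of the large subunit (Rpl and Rplp) and 26 of the small subunit (Rps), each with 1 row. Of the 77 such symbols without a copy suffix in the annotation, 62 were matched, and the other 2 members, Rpl17l5 and Rpl37l1, carry the suffix of a gene copy. RNA came from male Sprague-Dawley rats, 90 to 120 days old, bled by tail amputation and infused with Ringer's solution from that moment, and whole liver was collected at 330 min. The limited group was infused to a mean arterial pressure of 50 to 60 mmHg and the aggressive group to over 80 mmHg, with 3 rats and 3 one-colour NimbleGen arrays in each. Values are linear RMA intensities as deposited. Both groups had been bled, and rats without shock were not analysed here, so each difference is between the regimens.

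The cytosolic ribosome joins a small subunit, which reads the mRNA, to a large subunit, which forms peptide bonds. Its proteins are made in near-equal numbers, their mRNAs are among the most abundant in liver, and most of these mRNAs begin with a C followed by a run of pyrimidines, the terminal oligopyrimidine or TOP start. The kinase complex mTORC1 controls how well TOP mRNAs are translated, a step that measurement of mRNA level does not see, while Myc raises transcription of many ribosomal protein and ribosome assembly genes.

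The TOP start is a property that the choice of genes did not use. Starts listed by RefSeq for the assembly GRCr8 were found for 51 of the 64 genes, on 17 chromosomes, and where several starts were listed the first was read. The annotated first base was a C followed by at least 4 bases that are each C or T in 21 of the 51 genes (41.2%), against 2.63% of 27457 genes with a listed start. Allowing the C to lie within 3 bases of the annotated start gave 31 of 51 (60.8%), against 11.1%. The sequences that follow are 30 bases long, 15 before the start and 15 from it on. They are shown for members with the smallest p values, for a gene and its copy, and for a pair of much studied members, and capitals mark the C and the pyrimidine run where one was found.
Rps3a (chr2:173827028-173827057, minus strand): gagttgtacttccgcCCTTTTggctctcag
Rps10 (chr20:5700730-5700759, minus strand): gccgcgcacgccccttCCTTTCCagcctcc
Rpl39 (chrX:121195882-121195911, minus strand): tcttctaatcgcgttCTTCCggcctgtcct
Rps27a (chr14:107488927-107488956, minus strand): cctaaagggcggttCCTTCgacccggagac
Rpl17 (chr18:70856261-70856290, plus strand): tagccttcgcgcttcCTCTTCCTgttagcg
Rpl17l5 (chr10:45862425-45862454, minus strand): taaatgttatcctttataagagttgccttg
Rplp0 (chr12:46718376-46718405, minus strand): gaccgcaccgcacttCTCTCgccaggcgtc
Rps6 (chr5:106420526-106420555, minus strand): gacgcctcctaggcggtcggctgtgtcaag
Rpl17 has a TOP start, and its copy Rpl17l5 has none within 3 bases of its listed start. Rps6 has none at its listed start, which says only that these letters are not there. In the window from 250 bases before to 50 bases after the start, the ETS factor motif CCGGAAG, read on both strands, was in 16 of 51 members (31.4%) in 9.22% of all genes with a listed start and in 14.9% of the 5743 other genes on the array with one. The E-box CACGTG, a palindrome that Myc can bind, was in 4 members (7.84%), in 6.65% of all and in 8.97% of the other array genes. The GC box GGGCGG was in 27 members (52.9%), in 34.9% of all and in 56.1% of the other array genes. The TATA box TATAAA was in 5 members (9.80%), in 14.3% of all and in 9.77% of the other array genes. The YY1 core AAGATGG was in 7 members (13.7%), in 7.30% of all and in 7.17% of the other array genes. None of these motifs lies within another.

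Across the 6 arrays the ribosomal protein mRNAs differed little between the regimens. Of the 64 genes, 0 passed limma's test after Benjamini-Hochberg adjustment over all 19345 rows (smallest adjusted p = 0.299), against 0.114% of all rows. An unadjusted p under 0.05 was reached by 5 members (7.81%), against 13.1% of all rows. Among the 3711 other rows at least as bright as the dimmest member, 11.1% reached it. Of the 5 members, 4 were lower under limited resuscitation (6.25%, against 6.19% of all rows and 5.96% of those bright rows). Rps27a alone was higher, against 6.86% of all rows. Every member differed by less than 1.5-fold, with log2 differences (limited minus aggressive) from -0.57 to 0.41. At least that fold was found in 16.7% of all rows and in 5.98% of the other bright rows. For 62 of 64 members the 95% interval of the difference lay within 2-fold either way, the exceptions being Rpl39 and Rps12. That held for 58.2% of all rows, and for 90.2% of the other bright rows. A narrower bound of 1.5-fold held for 21 members (32.8%) and 29.9% of those bright rows. The spread between rats was low as well, with a median within-group SD of 0.17 on the log2 scale (0.05 to 0.48), against 0.31 over all rows and 0.19 over the other bright rows. When limma's variance prior was made robust and allowed to follow intensity, 1 member passed, Rps3a (adjusted p = 0.0368). Of all 19345 rows, 570 passed in that fit. With rows below the median of mean intensity also taken out, 3 members passed, Rps3a (adjusted p = 0.0195), Rps10 (0.0389) and Rpl39 (0.0448). Among all rows left in that fit, 751 passed, so such calls were not particular to the members.

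**Figure D1:**
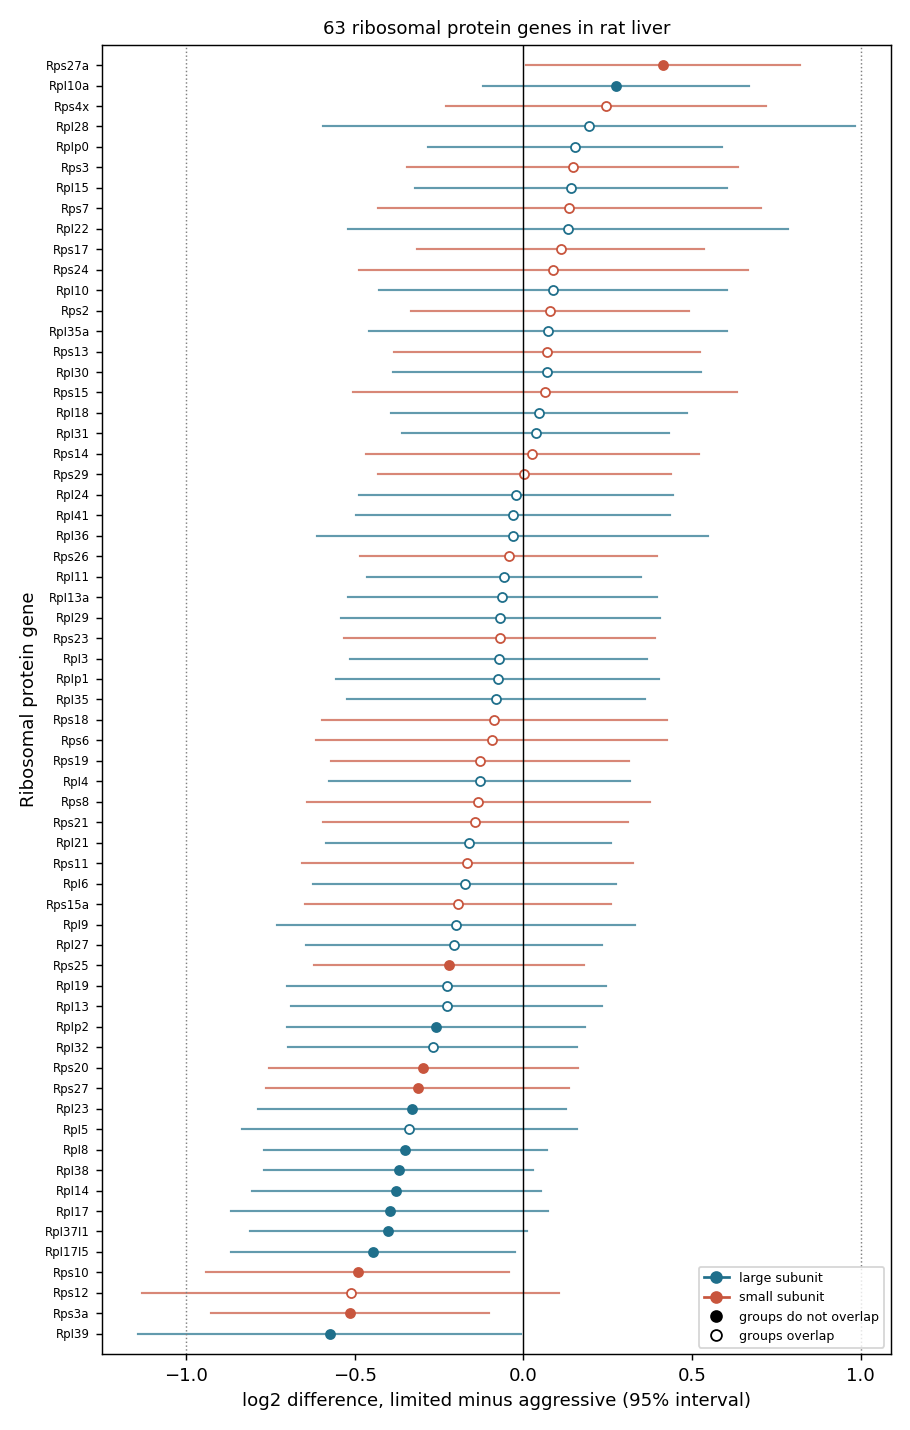
The log2 difference (limited minus aggressive, horizontal axis) is plotted for each of 63 ribosomal protein genes with its 95% interval from limma, n = 3 rats per group. Filled points are the 16 of these genes whose groups do not overlap, dotted lines mark a 2-fold difference, and points run from -0.57 (Rpl39) to 0.41 (Rps27a).

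The small differences lay more often on one side. Of 64 members, 43 (67.2%) had a log2 difference below 0, against 48.8% of all rows and 53.7% of the other bright rows, and the median was -0.08, against 0.01 over all rows and -0.02 over the other bright rows. In 17 members (26.6%) the groups did not overlap, against 19.8% of all rows and 26.8% of rows at least as bright as the members. In 15 of these the limited arrays were lower (23.4%, against 9.76% of all rows and 14.9% of rows at least as bright as the members), and in 2, Rps27a and Rpl10a, they were higher (3.13%, against 10.0% and 11.8%). Of the 15, 10 were large subunit genes, among them Rpl8, Rpl14, Rpl17, Rpl17l5, Rpl23, Rpl37l1, Rpl38, Rpl39 and Rplp2. The 5 of the small subunit were Rps3a, Rps10, Rps20, Rps25 and Rps27. The median stayed below 0 under each scaling tried, at -0.04 with quantile normalisation, -0.12 with arrays centred on the median, -0.10 on the 75th percentile and -0.06 on the other bright rows.

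By array, the median deviation of members from their own mean over the 6 arrays was -0.13, -0.04 and -0.01 in the limited and 0.05, 0.02 and 0.13 in the aggressive arrays. The groups did not overlap, by a gap smaller than the spread within either group. Limited array 1 held the lowest value of 21 members, and aggressive array 3 held the highest value of 24. Members above their own mean numbered 17, 29 and 29 in the limited and 39, 38 and 48 in the aggressive arrays. Of other bright rows, 39.7%, 51.7% and 52.6% were above their own mean in the limited and 58.2%, 41.8% and 59.7% in the aggressive arrays. For them too limited array 1 was lowest and aggressive array 3 highest, while aggressive array 2 lay among the limited arrays. Without limited array 1 the members' median difference was -0.08, and without aggressive array 3 it was -0.06.

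**Figure D2:**
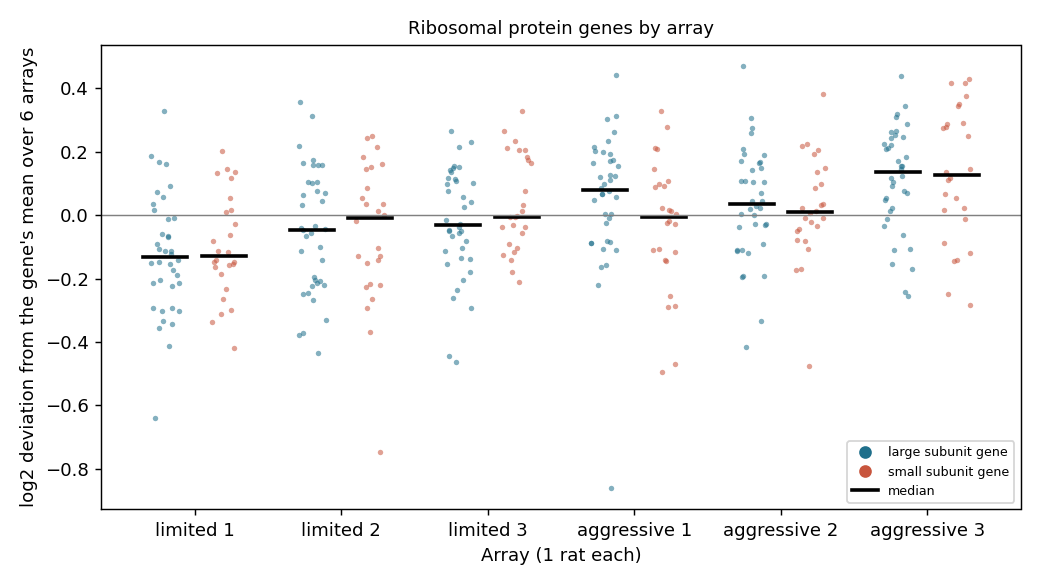
Each point is 1 ribosomal protein gene in 1 array, as its log2 deviation from that gene's mean over the 6 arrays (vertical axis), with large subunit genes left and small subunit genes right within each array and black bars at the medians. Both medians are lowest in limited array 1, at -0.13, and highest in aggressive array 3, at 0.13.

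Other transcripts differed between arrays too, the lung markers mainly in aggressive arrays 1 and 3 and the macrophage markers between the groups. Of 13 lung markers, 10 exceeded their mean over the limited arrays 4-fold or more in aggressive arrays 1 and 3 alike, and 1 reached that level in aggressive array 2. Their summed intensity was 2323 to 2894 in the limited arrays, with no value at 0 (lowest value 18.3). It was 6967, 3309 and 9589 in aggressive arrays 1, 2 and 3, so array 2 lay near the limited arrays. Kupffer cell and macrophage markers, 9 of 11 measured, summed to 43962 to 50988 in the limited and 29309 to 34427 in the aggressive arrays. The 8 hepatocyte markers summed to 271155 to 286537 and 281465 to 299566, so the labelled tissue's markers were present. Summed lymphocyte, neutrophil, erythroid and proliferation markers (3 or 4 measured in each list) overlapped between the groups. The neutrophil sum was mostly Lcn2 and the erythroid sum mostly Hbb, so each rests on a single gene. Of the lymphocyte markers, Cd4 was higher in the limited rats without overlap (log2 difference 0.95, adjusted p = 0.190, limma). The other 3 lay below 0 with overlapping groups. Against aggressive array 2 alone the members' median difference was -0.11, with no member at an unadjusted p under 0.05 and 1 rat in that group. The part of other cells in the ribosomal protein values was not tested, and in whole liver fewer cells of a type and less RNA per cell cannot be told apart.

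The large and small subunits had similar median differences. The median log2 difference was -0.11 over 38 large subunit genes, 28 of them below 0, and -0.08 over 26 small subunit genes, 15 of them below 0. Removing limited array 1 or aggressive array 3 brought the small subunit median to -0.02, and removing aggressive array 1 brought it to -0.12. As reported, the medians differed by -0.03. Large minus small subunit, as the difference of the median deviations in an array, was -0.0033, -0.04 and -0.03 in the limited and 0.09, 0.03 and 0.0095 in the aggressive arrays. The between-rat SD of this array value within groups was 0.03, and it does not apply to the difference of medians over genes. The aggressive values were higher than the limited ones in all 3 arrays. Leaving out 1 array gave a difference of medians between -0.0089 (aggressive array 1 removed) and -0.13 (aggressive array 3 removed), and removing limited array 1, 2 or 3 or aggressive array 2 gave -0.07, -0.06, -0.06 and -0.07. Its size thus depended on single arrays, and its sign was negative in each case. Each subunit had members in either direction, from -0.57 to 0.27 for the large and from -0.51 to 0.41 for the small.

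Among small subunit members, Rps3a had the smallest p value. Rps3a, a protein of the 40S platform where the mRNA leaves, had an intensity of 9149, 9435 and 10467 in the limited and 14012, 12813 and 14669 in the aggressive arrays. Every aggressive rat was above every limited rat. The log2 difference was -0.51 (SE 0.18, 1.43-fold higher under aggressive resuscitation, adjusted p = 0.299, limma). Rps10, a protein of the 40S head that is ubiquitinated when ribosomes collide in human cells, was 6796, 6319 and 7585 in the limited and 10241, 8342 and 10582 in the aggressive arrays. Its groups were also apart, by a log2 difference of -0.49 (adjusted p = 0.349, limma). Rps12 had a similar difference of -0.51, but limited array 2 stood low at 3767, against 5558 and 7085 in the other limited arrays and 6807 to 8233 in the aggressive arrays, and the groups overlapped (adjusted p = 0.461, limma).

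Rps27a, made as a fusion of ubiquitin with a small subunit protein, pointed the other way. Its intensity was 14834, 16042 and 15849 in the limited and 11038, 12731 and 11342 in the aggressive arrays. All limited rats were above all aggressive rats, with a log2 difference of 0.41 (95% interval 0.0078 to 0.82, 1.33-fold, adjusted p = 0.376, limma). Fau, which joins a ubiquitin-like protein to a small subunit protein, had a log2 difference of -0.13, with overlapping groups, and 0.13 against aggressive array 2 alone. Rps4x, the X-linked form of a small subunit protein, was 10512, 13722 and 13956 in the limited and 9509, 11644 and 10914 in the aggressive arrays. The groups overlapped, with a log2 difference of 0.25 (adjusted p = 0.662, limma).

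For 4 further small subunit members the groups overlapped. Rps6, the substrate of the S6 kinases downstream of mTORC1, was 9797, 11114 and 10620.0 in the limited and 9995, 9619 and 14617 in the aggressive arrays. Only aggressive array 3 was outside the limited range on the high side (log2 difference -0.09, 95% interval -0.61 to 0.43, and 0.10 without that array). Rps3, at the mRNA entry channel, was 9407, 11317 and 11580.5 in the limited and 9233, 11758 and 8382 in the aggressive arrays, and the groups overlapped (log2 difference 0.15, 95% interval -0.34 to 0.64, and -0.13 against aggressive array 2 alone). Rps19, the gene most often mutated in human Diamond-Blackfan anemia, was 6144, 7119.5 and 6434 in the limited and 7576, 7836 and 6197 in the aggressive arrays. Its log2 difference was -0.13 (95% interval -0.57 to 0.31). Rps18, often used as a reference gene in PCR, was 12146, 12196 and 17920.2 in the limited and 14308, 15680 and 14152 in the aggressive arrays, where limited array 3 stood above all others (log2 difference -0.09, 95% interval -0.60 to 0.42, above 0 without limited array 1 or 2).

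Among large subunit members the largest difference belonged to Rpl39, a small protein that lines the exit tunnel of the nascent chain. Its intensity was 1178, 1461 and 1987 in the limited and 2162, 2549 and 2046 in the aggressive arrays. The groups were apart by a narrow gap, with a log2 difference of -0.57 (SE 0.24, 1.49-fold higher under aggressive resuscitation, adjusted p = 0.378, limma). Rpl17, which sits near the outer end of that tunnel, was 11063, 9007 and 7734 in the limited and 12605, 11659 and 11934 in the aggressive arrays (log2 difference -0.40, adjusted p = 0.456, limma). Its copy Rpl17l5, the only member measured by a predicted transcript, was 4831, 5094 and 5888 in the limited and 7565, 7079 and 6827 in the aggressive arrays (log2 difference -0.45, adjusted p = 0.363, limma). Both rows had groups apart in the same direction. As signal shared between a gene and a near-identical copy cannot be told apart here, the rows may not be independent. Rpl37l1, which RefSeq lists with the synonym Rpl37, was 10626, 10096 and 10578 in the limited and 12717, 13488 and 15210.0 in the aggressive arrays. Its aggressive rats were all higher (log2 difference -0.40, adjusted p = 0.395, limma).

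The proteins of the P stalk, the flexible arm that recruits translation factors to the large subunit, did not move as a group. Rplp0, the stalk base and a common PCR reference gene, was 30909, 29704 and 26947 in the limited and 24801, 24178 and 30005 in the aggressive arrays. The groups overlapped, with a log2 difference of 0.15 (95% interval -0.28 to 0.59). Rplp1 was 5224, 5867 and 4390.5 in the limited and 5175, 4872 and 6246 in the aggressive arrays (log2 difference -0.08, 95% interval -0.55 to 0.40, above 0 without limited array 3 or aggressive array 3). Rplp2, its partner, was 11588, 13766 and 13710 in the limited and 15503, 13939 and 17354 in the aggressive arrays. Here the groups were apart by a narrow gap (log2 difference -0.26, adjusted p = 0.614, limma).

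Rpl5 and Rpl11, which carry the 5S rRNA into the ribosome and bind Mdm2 when assembly is disturbed, gave different values. Rpl5 was 6352, 5445 and 8140 in the limited and 8196, 8917 and 7772 in the aggressive arrays, overlapping through limited array 3 (log2 difference -0.34, 95% interval -0.83 to 0.16). Rpl11 was 14672, 15121 and 13783 in the limited and 13974, 15258 and 16113 in the aggressive arrays, with a log2 difference of -0.06 (95% interval -0.46 to 0.35, and 0.02 with quantile normalisation). Rpl10, a late-joining protein of the large subunit, was 6502, 4872 and 6712 in the limited and 6712, 5063 and 5205 in the aggressive arrays. Its groups overlapped almost wholly (log2 difference 0.09, 95% interval -0.43 to 0.60). Rpl13a, released from the ribosome of interferon-gamma-treated human monocytes and also a PCR reference gene, was 11200.4, 14075 and 11516 in the limited and 12498, 11480 and 14412 in the aggressive arrays. Its log2 difference was -0.06 (95% interval -0.52 to 0.40), and 0.0096 with quantile normalisation.

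**Figure D3:**
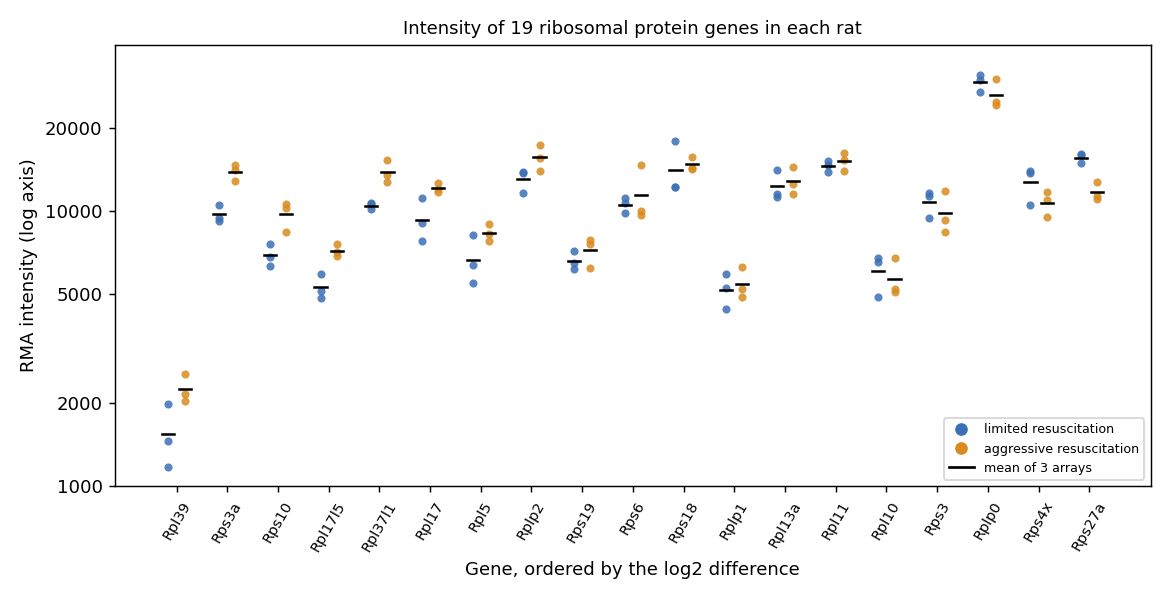
Points give the RMA intensity (log axis) of 19 ribosomal protein genes in each of 3 limited and 3 aggressive rats, with a bar at each group's mean, ordered from the lowest to the highest log2 difference. The groups are apart for Rpl39, Rps3a, Rps10, Rpl17l5, Rpl37l1, Rpl17 and Rplp2 and, at the right end, for Rps27a, and overlap for the other genes; levels of different genes are not comparable.

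Single arrays stood apart for some members. Rpl28, a large subunit protein, was 3818 in aggressive array 1, against 8581 and 8332 in the other aggressive arrays and 6635 to 8334 in the limited arrays, and it had the highest within-group SD of the 64, at 0.48 on the log2 scale. Rpl22, a large subunit protein that also binds viral RNA, was 3748 in aggressive array 3, against 2374 and 2072 in the other aggressive arrays. By contrast Rpl10a, with the lowest within-group SD (0.05), was 8189.9, 7562 and 8011 in the limited and 6666, 6291 and 6685 in the aggressive arrays. Its groups were apart and limited rats were higher (log2 difference 0.27, adjusted p = 0.542, limma). Rpl38, which in mice is needed for translation of Hox mRNAs, was 4710.4, 4416 and 4324 in the limited and 5821, 5494 and 6068 in the aggressive arrays, with aggressive rats higher (log2 difference -0.37, adjusted p = 0.416, limma).

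Members were also set apart by their promoter letters, as a description with no test. The median log2 difference was -0.04 over the 21 members with a C and a pyrimidine run at the annotated start, 11 of them below 0, and -0.08 over the 30 members without, 23 of them below 0. With the start allowed to shift by up to 3 bases the medians were -0.07 over the 31 members with it, 17 of them below 0, and -0.11 over the 20 without, also 17 of them below 0. Values below 0 were thus the more frequent, in both counts, among members in which no such C and run were found. A run that begins further from the listed start was not counted, so these members may still have a TOP start. Medians with and without a motif were -0.07 and -0.07 for the ETS motif (16 and 35 members), -0.06 and -0.15 for the GC box (27 and 24) and 0.03 and -0.08 for the YY1 core (7 and 44). They were 0.0088 and -0.08 for the E-box (4 and 47) and -0.07 and -0.07 for the TATA box (5 and 46).

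Genes that serve the ribosome without being part of it also lay more often below 0 than above. Of 43 measured ribosome biogenesis genes (79 listed), 0 passed and 33 lay below 0 (76.7%, against 48.8% of all rows), with a median log2 difference of -0.23. An unadjusted p under 0.05 was reached by 8 of them (18.6%), all lower under limited resuscitation, against 13.1% of all rows in either direction and 6.19% lower. Dkc1, the pseudouridine synthase of H/ACA particles, was 1446, 1549.8 and 1145 in the limited and 2768, 1969.8 and 2176 in the aggressive arrays (log2 difference -0.74, adjusted p = 0.250, limma). The nucleolar helicase Ddx21 was 1065, 996 and 1126 in the limited and 1407, 1674 and 1561 in the aggressive arrays (log2 difference -0.54). The nucleolar GTPase Gnl2 was 2333, 2390.5 and 2805 in the limited and 3428, 3638 and 3947 in the aggressive arrays (log2 difference -0.55). For all 3 genes, picked by the smallest p values of the list, the aggressive rats were higher without overlap. Over the list, 13 genes (30.2%) were lower under limited resuscitation without overlap and 1 (2.33%) higher, against 9.76% and 10.0% of all rows. Of 32 measured translation factors (51 listed), 0 passed and 25 lay below 0 (78.1%), with a median of -0.18. An unadjusted p under 0.05 was reached by 2 (6.25%), both lower, close to the 6.19% of all rows that were lower. The release factor Gspt1 was 5258, 5098 and 4987 in the limited and 8406, 7676 and 6044 in the aggressive arrays (log2 difference -0.51, adjusted p = 0.344, limma). Eif2b3, a subunit of the exchange factor eIF2B, was 548, 533 and 617 in the limited and 799, 729 and 760.3 in the aggressive arrays (log2 difference -0.43). Eif4h, a helicase cofactor, was 1413, 1099 and 1271 in the limited and 1814, 1480.5 and 1879 in the aggressive arrays (log2 difference -0.45). These 3 genes, picked in the same way, too had every aggressive rat above every limited one. Over the list, 10 translation factors (31.25%) were lower under limited resuscitation without overlap and 3 (9.38%) higher. The eIF2B subunits lay on both sides of 0. Eif2b4 (log2 difference 0.24, adjusted p = 0.589, limma) and Eif2b5 (0.36, adjusted p = 0.474, limma) were higher in the limited rats without overlap, but did not pass. Eif2b1 (-0.25) and Eif2b2 (-0.16) lay below 0 with overlapping groups. Against aggressive array 2 alone the medians were -0.14 for biogenesis and -0.09 for translation factors, nearer 0 than over all arrays. In the fit with a trended, robust prior and without dim rows, 6 biogenesis genes and 1 translation factor passed. They were among 751 rows that passed in that fit.

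Mitochondrial ribosomal proteins, which serve a separate ribosome, did not lie to one side. Of 24 measured, 11 were below 0, 0 passed and 1 (4.17%) had an unadjusted p under 0.05, with a median of 0.02 (-0.02 with arrays centred on the median and -0.07 without limited array 3). Mrps15 was 527, 435 and 428 in the limited and 680.1, 646 and 754 in the aggressive arrays, without overlap (log2 difference -0.58). Mrpl23 was 510.4, 533 and 459 in the limited and 731, 613 and 616 in the aggressive arrays, also without overlap (log2 difference -0.38). Mrps26 was 927, 738 and 565 in the limited and 318, 575 and 684 in the aggressive arrays, with overlap (log2 difference 0.54, and 0.22 without aggressive array 1). Of the cytosolic ribosomal proteins with other symbols, Rpsa, of the small subunit, was 12410.0, 17262 and 17243 in the limited and 19796, 13609 and 21124 in the aggressive arrays (log2 difference -0.21). Rack1, a scaffold on the small subunit, was 7045, 9339 and 8989.6 in the limited and 9289, 10762 and 8270.4 in the aggressive arrays (log2 difference -0.16). The groups overlapped for both, and against aggressive array 2 alone the difference of Rpsa was 0.18.

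Of 20 measured genes of mTORC1 signalling and the Myc network (40 listed), 1 passed and 10 lay below 0, with a median of 0.02 (-0.01 with arrays centred on the median). The gene that passed was Ddit4, an mTORC1 inhibitor, at 126, 138 and 104 in the limited and 455, 380 and 375 in the aggressive arrays, with no overlap (log2 difference -1.72, adjusted p = 0.0482, limma). Leaving out any single array gave it an adjusted p of 0.114 to 0.227, and 0.0567 was found with arrays centred on the median. Myc was 1101, 943 and 890 in the limited and 1532, 1712 and 1642 in the aggressive arrays, all aggressive rats being higher (log2 difference -0.74, adjusted p = 0.185, limma). Myc passed with the robust, intensity-dependent prior (adjusted p = 0.012) and without dim rows (adjusted p = 0.0195). Eef2k, a kinase that inhibits elongation, was 508, 359.5 and 446 in the limited and 256, 353 and 147 in the aggressive arrays, with the limited rats higher and no overlap (log2 difference 0.87, adjusted p = 0.347, limma). Its difference was 0.53 without aggressive array 3 and 0.29 against aggressive array 2 alone. The groups overlapped for Mtor, which differed by -0.19, Rps6kb1, an S6 kinase, by -0.13 (0.10 without limited array 3), and Eif4ebp1, a repressor of cap-dependent initiation, by -0.20, without passing.

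**Figure D4:**
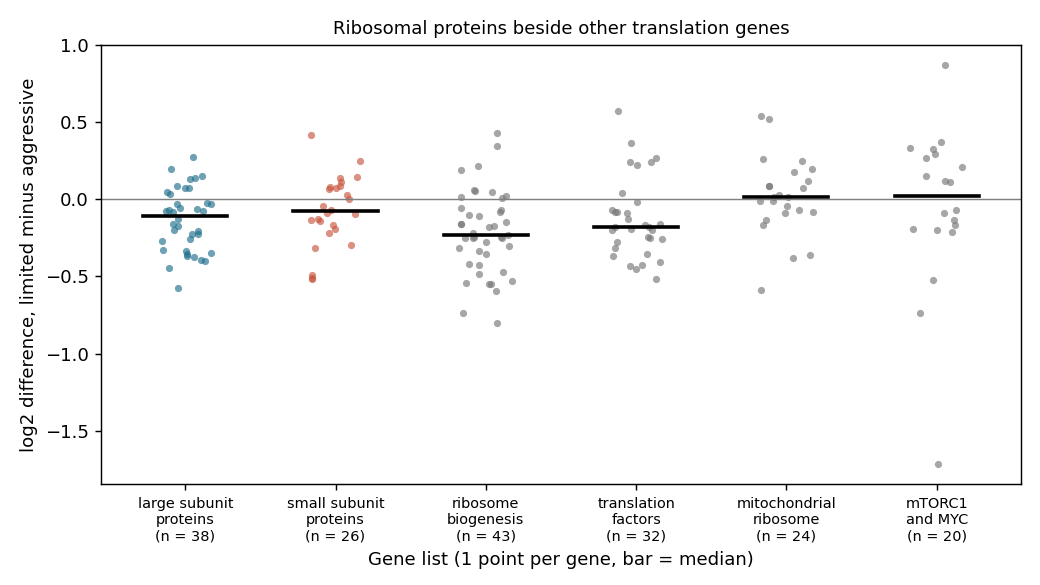
Each point is the log2 difference (limited minus aggressive, vertical axis) of 1 gene, for the 38 large and 26 small subunit proteins and 4 other lists, with black bars at the medians. Medians are -0.11 and -0.08 for the subunits, -0.23 for ribosome biogenesis, -0.18 for translation factors and 0.02 for both the mitochondrial ribosome and mTORC1 and MYC, and the lowest point is Ddit4.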

How the data were processed

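The deposited table holds 1 intensity per array and row on a linear scale, made with RMA per the submitters' processing notes. RMA corrects background, normalises arrays and summarises probes. Its version, the scanner and the genome build of the array are not named in any source used here. The labels name both Trizol and an RNeasy kit for extraction. Array medians were 226 to 243 (limited) and 212 to 245 (aggressive), and the correlation of log2 values was 0.965 to 0.970 inside groups and 0.955 to 0.963 across them. Each array held RNA of 1 rat, so the spread within a group is that between 3 rats. The p-values from limma combine a row's own spread with a variance prior estimated over all rows. Rpl10a, with a within-group SD of 0.05, thus had an SE of 0.17. Signal over background is unknown here, and the number of arrays limits the precision.

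Unversioned accessions were matched to RefSeq symbols (GRCr8), naming 7223 rows. Log2 intensities of all 19345 rows were fitted with limma 3.58.1 in R 4.3.3, with two-sided tests. There were 4 residual degrees of freedom, to which the prior added 3.26. The threshold was 0.05 after Benjamini-Hochberg adjustment. The procedure was tested on simulated data. Groups and replicate numbers came from the titles. Members, lists, tests and the rule for named genes were chosen with earlier results of these data known, so lists get counts and medians and no test. Array values are given for members with an unadjusted p under 0.05 and no overlap (up to 6 per direction, by size), gene copies and X-linked forms with their parents, 12 fixed members, the 3 smallest p values of each other list and fixed genes, Fau, Mtor, Rps6kb1 and Eif4ebp1 by difference only and Larp1 not measured. A few genes are counted but not reported here by name. Rps12, Rpl10a, Rpl22, Rpl28 and Rpl38, the eIF2B subunits other than Eif2b3, the promoter motifs and the comparison with bright rows were chosen after values were seen. Alternatives were scaling, dim rows, variance prior, array weights, a replicate block, the mean of rows, limma's treat (1.2-fold) and leaving out arrays.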

Additional observations from a re-analysis of the deposited data

How the results depend on the processing

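Of 64 ribosomal protein genes, 0 passed under any of the 18 alternatives except 2, namely the intensity trend and robust prior (1) and that prior without dim rows (3), the latter chosen after the data were seen, as was centring on other bright rows. The members' median difference stayed between -0.13 and -0.04. Members with an unadjusted p under 0.05, 5 as reported, numbered 3 with centred medians, 10 without dim rows, 14 with either robust prior, 1 with the replicate block, 0 to 5 with any 1 array left out and 0 without aggressive arrays 1 and 3. Members without overlap, 17, numbered 14 with quantile normalisation and 15 with arrays centred on the median. They numbered 20 to 27 with 1 array left out and 36 against aggressive array 2 alone, where fewer arrays make overlap rarer. Shares of all rows without overlap or with an unadjusted p under 0.05 were not counted under the alternatives. The members' counts there thus have no background beside them. Large minus small subunit ranged from -0.13 to -0.0089 with 1 array left out and was -0.11 without aggressive arrays 1 and 3. Of all rows, 22 passed, against 483 without dim rows, 570 with the robust prior, 751 with both, 0 with the replicate block, 3 with treat, 0 to 2 with 1 array left out (2 without aggressive array 2), 0 without aggressive arrays 1 and 3 and 0 with centring on bright rows. Biogenesis genes that passed numbered 1 without dim rows, 1 with the robust prior and 6 with both, and translation factors 1 with both. In the mTORC1 and MYC list 2 passed with the robust prior, Ddit4 and Myc. Ddit4 was among the dim rows removed, so without these 1 passed, Myc, and with the robust prior 2, Myc and Eef2k. The count was 0 with centred medians, centring on bright rows, the replicate block, treat, any 1 array left out, or without aggressive arrays 1 and 3. Against aggressive array 2 alone, that array was assumed to vary like the limited ones. Same-numbered arrays deviated at r = -0.06, -0.05 and 0.05, so the numbers gave no evidence of pairing. The cause of each shift was not tested.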
